A study of Oryza sativa with 8 samples.

Results

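Differentially methylated regions (DMRs) were examined in WYG7-LN plants set against WYG7-HN plants of the HN field, together with the genes that carry them. All DMRs and all genes that the authors listed for this comparison were taken, which gave 28880 of the 100479 DMRs and 10740 of the 19182 genes listed in the study. WYG7 is Wuyungeng 7, the untransformed wild type rice of the study. The WYG7-LN plants grew from seeds with low parent seed nitrogen, harvested in a field without N fertiliser, and the WYG7-HN plants grew from seeds with high parent seed nitrogen, harvested in a fertilised field. Both kinds of plants were grown in the HN field, which received 300 kg N/ha, and were sampled at maturity. The question was which parts of the genome differed in methylation with the nitrogen content of the parent seed while the plants themselves had ample nitrogen.

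LN seeds were set against HN seeds in 3 other comparisons: Ox1 in the HN field, WYG7 in the NN field, and Ox1 in the NN field. Their lists held 25546, 26288 and 19765 DMRs and 10526, 10941 and 7837 genes, in this order. Counts below are thus compared between lists of unlike size. The NN field received no N fertiliser. Ox1 is 1 transgenic line in the WYG7 background that overexpresses OsNAR2.1 under its own promoter. Whole-genome bisulfite sequencing was performed on 1 library per condition, 8 libraries in all, so the 4 comparisons share no library. No comparison has a replicate, no difference has a replicate error, and no p-value is given. The 95% intervals printed with shares are Wilson intervals that cover counting error over DMRs or genes only. The labels give the tissue as shoot, and the methods of the study name leaves.

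DNA methylation in plants is carried by cytosines in the CG, CHG and CHH contexts, where H is A, T or C. CG methylation is copied after replication by MET1, CHG methylation is kept by CMT3, and CHH methylation is set by CMT2 and by the DRM enzymes, which small RNAs guide to their targets. In rice, transposons are heavily methylated in all contexts, and the bodies of many expressed genes carry CG methylation alone. A DMR here is a stretch of at least 100 bp with at least 5 cytosines whose methylation differed by at least 0.3 between the libraries. A gene counts as a DMG when its interval, the gene body with a promoter of 1 kb, overlaps a DMR. The lists give positions and a direction for each DMR but no methylation level, context, read coverage or p-value, so the depth behind a DMR is unknown. Hyper was read as higher and hypo as lower methylation in WYG7-LN than in WYG7-HN.

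The list held 13260 hyper-DMRs covering 4.32 Mb and 15620 hypo-DMRs covering 4.71 Mb. Both directions had nearly the same median length, 228 bp for hyper-DMRs and 230 bp for hypo-DMRs. The long DMRs were mostly hyper. Of the 761 DMRs of at least 1 kb, 474 were hyper and 287 were hypo, a hyper share of 62.3%, while 45.9% of all DMRs were hyper (95% interval from 45.3% to 46.5%). The surplus of hyper over hypo long DMRs lay in 22 windows of 500 kb that were dense in DMRs and are described with the windows. In them 72.9% of 410 long DMRs were hyper, against 61.8% of all DMRs there. Outside them 175 long DMRs were hyper and 176 were hypo, a hyper share of 49.9%, against 43.6% of all DMRs there. Long DMRs thus had a higher hyper share than all DMRs in both parts. Such long DMRs numbered 761 of 28880 in WYG7 in the HN field and 193 of 25546 in Ox1 in the HN field. In the NN field, WYG7 had 239 of 26288 and Ox1 had 108 of 19765.

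The DMRs were spread unevenly over the 12 chromosomes. Chromosome 9 held 114 DMRs per Mb and chromosome 11 held 107, followed by chromosome 5 with 93.5 and chromosome 8 with 92.4. The lowest density was 54 DMRs per Mb on chromosome 3. Hyper-DMRs were the majority on chromosome 11 (57.0%), chromosome 8 (54.7%) and chromosome 9 (50.2%), and were fewest on chromosome 5 (36.9%). Chromosomes 5, 8, 9 and 11 thus had the highest densities, and chromosomes 5 and 11 also had the lowest and the highest hyper share. The median gap between neighbouring DMRs was 1331 bp on chromosome 9 and 1826 bp on chromosome 11, and 6172 bp on chromosome 12.

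**Figure D1:**
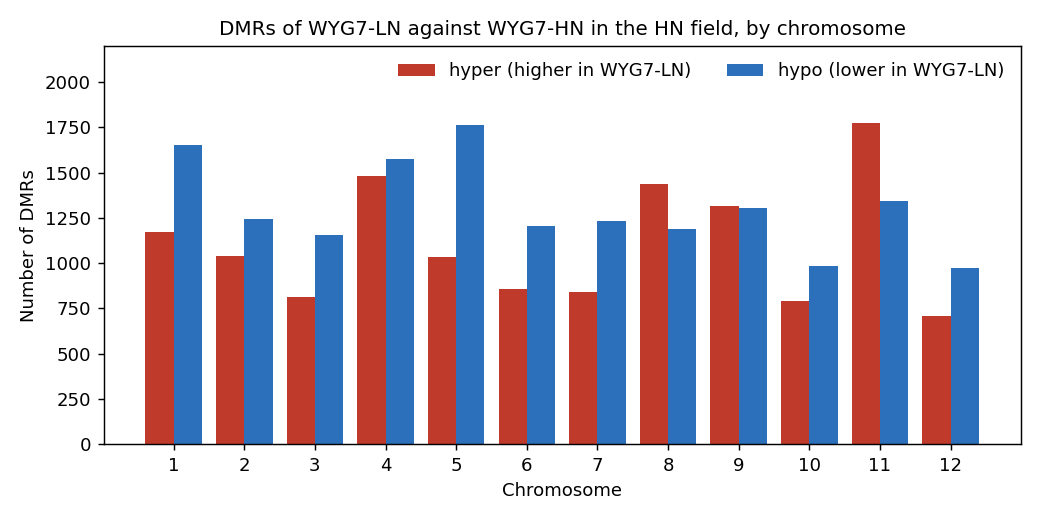
Number of hyper-DMRs (red) and hypo-DMRs (blue) on each of the 12 chromosomes in the comparison of WYG7-LN with WYG7-HN in the HN field, 1 library a side. Chromosome 11 held 1776 hyper-DMRs and 1342 hypo-DMRs, and chromosome 5 held 1034 hyper-DMRs and 1765 hypo-DMRs.

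DMRs were packed in a small number of places. The genome was cut into 750 windows of 500 kb, and the median window held 33 DMRs. In 22 windows the number was more than 3 times the median. These dense windows formed 13 blocks on 6 chromosomes and held 3612 DMRs (12.5% of the list) and 889 listed genes. The fullest window held 275 DMRs, against 104 in Ox1 in the HN field, 98 in WYG7 in the NN field and 76 in Ox1 in the NN field. Dense windows were chosen by the count of this list, so a lower count of the other lists in them is not a finding.

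In 6 of the 13 dense blocks more than 90% of the DMRs had the same direction. The hyper share of the other 7 ran between 14.3% and 81.8%. The largest block, chr11:26000001-28500000 (IRGSP-1.0), held 1006 DMRs that covered 540 kb, and 96.1% of them were hyper. It carried 240 listed genes, of which 218 were hyper only, 13 were hypo only and 9 had both directions. The block chr9:10500001-11500000 held 389 DMRs, 94.9% of them hyper, and on chromosome 8 the blocks chr8:1000001-1500000 and chr8:14500001-15000000 held 227 and 197 DMRs, with hyper shares of 93.8% and 91.9%. The opposite direction prevailed at chr5:5000001-6500000, where 5.96% of 470 DMRs were hyper, and at chr9:1-1000000, where 7.39% of 406 DMRs were hyper. In the largest block, Ox1 in the HN field had 228 DMRs with 70.6% hyper, WYG7 in the NN field had 57 with 49.1% hyper and Ox1 in the NN field had 200 with 34.0% hyper. The genome-wide hyper shares of these lists were 75.4%, 64.5% and 33.7%. The block was chosen in the list of WYG7 in the HN field, so a more extreme direction there is not a finding.

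Windows of extreme direction occurred on both sides in this list. Among the 734 windows with at least 10 DMRs, 15 were more than 80% hyper and 22 were less than 20% hyper, with hyper shares between 1.45% and 99.6%. In the other lists such windows lay on 1 side, the side of the genome-wide majority. Ox1 in the HN field had 199 windows over 80% and 0 under 20%, WYG7 in the NN field had 43 and 0, and Ox1 in the NN field had 0 and 43.

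**Figure D2:**
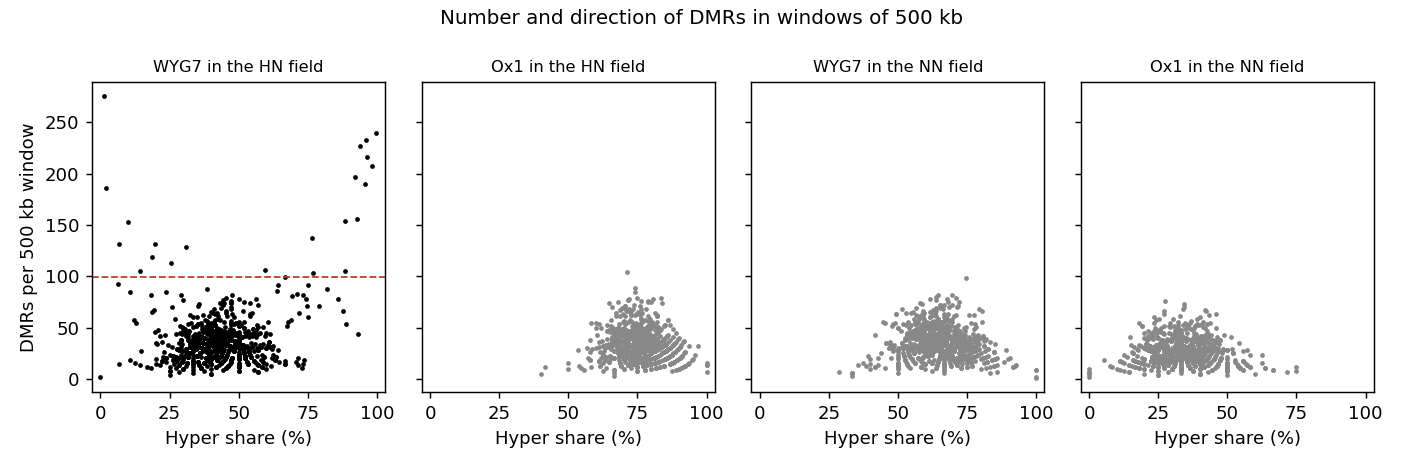
Number of DMRs (y axis) against the hyper share in percent (x axis) for windows of 500 kb, 1 point per window, in the 4 comparisons. The dashed red line marks 3 times the median window of WYG7 in the HN field, whose fullest windows lie near 0% or 100% hyper and reach 275 DMRs.

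Runs of consecutive DMRs with the same direction showed the blocks without windows. The longest run had 346 hypo-DMRs with no hyper-DMR between them, at chr9:37672-638683, a span of 601 kb of which 35.5% was covered by DMRs. It touched 81 listed genes. In the same span the other lists had DMRs of both directions, with 46 hyper of 74 in Ox1 in the HN field, 47 hyper of 85 in WYG7 in the NN field and 22 hyper of 68 in Ox1 in the NN field. In the 200 kb after the run, this list had 32 DMRs, of which 20 were hyper. A run ends at the first DMR of the other direction, so its edge need not be the edge of a block.

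The next runs were 170 hypo-DMRs at chr5:5464494-5791925, 163 hyper-DMRs at chr11:28167172-28480650 and 130 hyper-DMRs at chr9:10525484-10707012. The 200 kb before and after each mostly kept its direction. At the run on chromosome 5, 2 of 42 DMRs before and 4 of 26 after were hyper. On chromosome 11, 85 of 86 before and 39 of 46 after were hyper, and on chromosome 9, 14 of 22 and 42 of 49. In the run on chromosome 9, DMRs covered 50.3% of the span. The other lists had 7, 8 and 8 DMRs there, in the order Ox1 in the HN field, WYG7 in the NN field and Ox1 in the NN field. A second hyper run on chromosome 9 with 118 DMRs, at chr9:11076667-11244101, coincided with 1, 1 and 2 DMRs of these lists. The hyper run on chromosome 11 held 33, 6 and 36 DMRs of these lists, and the hypo run on chromosome 5 held 37, 46 and 40. The spans differ in length and were chosen by the runs of this list, so the numbers are given as a description. Runs of at least 20 DMRs numbered 65 in WYG7 in the HN field, against 25 in Ox1 in the HN field, 2 in WYG7 in the NN field and 1 in Ox1 in the NN field, whose longest runs were 40, 22 and 25 DMRs. With at least 10 DMRs the order was another, with 149 runs (15.9% of DMRs) here, against 392 runs (20.2%) in Ox1 in the HN field, and 123 and 125 runs in the lists of the NN field.

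DMRs of this list lay close to each other. The median gap between neighbours was 3085 bp, with quartiles of 563 bp and 14562.5 bp, and the largest gap was 461884 bp. The median gap was 4374.5 bp in Ox1 in the HN field, 4513.5 bp in WYG7 in the NN field and 5437 bp in Ox1 in the NN field. Of the 28868 pairs of neighbours, 9649 (33.4%) lay within 1 kb, against 26.8%, 26.2% and 26.3% in the other lists, in the same order. The other lists held 25546, 26288 and 19765 DMRs, against 28880 here. Fewer DMRs on the same genome lie further apart, and the part of list size in these differences was not tested. Without the dense windows the median gap of this list was 4035 bp.

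Neighbours within 1 kb had the same direction in 62.9% of pairs. The share was 58.9% in Ox1 in the HN field, 51.0% in WYG7 in the NN field and 54.7% in Ox1 in the NN field. With 75.4% hyper, Ox1 in the HN field has more same-direction pairs by its composition than this list with 45.9%. Without the dense windows the share in this list was 54.0%.

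The share depended on the gap. Neighbours that touched or overlapped, 523 pairs, had the same direction in 79.9% (76.3% to 83.1%). At gaps of 1 to 100 bp the share was 66.8%, and at 101 to 200 bp it was 53.8% (51.1% to 56.5%), the lowest value among gaps of up to 10 kb. It was 62.1% at 501 to 1000 bp and 52.1% above 50 kb. Without the dense windows, the share at 101 to 200 bp was 42.5%, so outside these windows most neighbours at this distance had opposite directions. A low share at 101 to 200 bp was present in all lists, with 49.6% in Ox1 in the HN field, 40.3% in WYG7 in the NN field and 41.5% in Ox1 in the NN field.

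**Figure D3:**
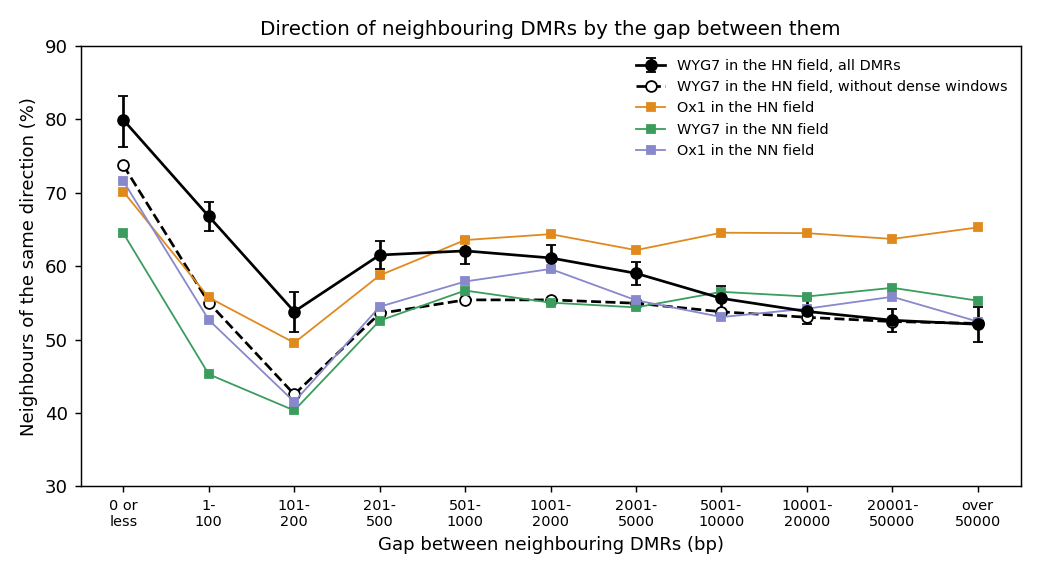
Share of neighbouring DMRs with the same direction (y axis, percent) by the gap between them (x axis, bp) in the 4 comparisons; black bars are Wilson 95% intervals over pairs, and the dashed line leaves out the dense windows of WYG7 in the HN field. Touching DMRs of this list had the same direction in 79.9% of pairs and DMRs 101 to 200 bp apart in 53.8%, or 42.5% without the dense windows.

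The gene table of this comparison listed 10740 genes, 56% of the 19182 that appear in at least 1 of the 4 tables. This share is a background over genes with a DMR somewhere in the study and not over all rice genes. Hyper-DMRs alone were found in 3638 genes (19%), hypo-DMRs alone in 5053 (26.3%) and both in 2049 (10.7%). Genes with 2 or more DMRs numbered 3953 (20.6%). A DMR lay in a listed gene in 18044 cases (62.5% of the list), and the other 10836 DMRs lay outside listed genes. The DMRs in listed genes were longer, with a median of 243 bp against 208 bp outside, and 45.0% of them were hyper against 47.4% outside. DMRs were counted for a gene if they overlapped its interval by 52 bp or more, and a DMR with a smaller overlap counted as outside. Each listed gene has a largest overlap with a DMR, and 52 bp is the smallest of these. A longer DMR meets this limit more easily, and its part in the difference in length was not tested. By this count, 820 DMRs lay in 2 genes and 9 in 3.

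Most listed genes, 6787, had a single DMR. At least 3 DMRs were found in 1856 genes, at least 5 in 602 and at least 10 in 26, and the highest number was 14. Genes with at least 5 DMRs numbered 383 in Ox1 in the HN field, 352 in WYG7 in the NN field and 369 in Ox1 in the NN field, and those with at least 10 numbered 7, 6 and 8. These comparisons listed 10526, 10941 and 7837 genes, against 10740 here, and the part of list size in these counts was not tested. Genes with more DMRs were longer. The median interval was 4511 bp for genes with 2 or more DMRs, 5044 bp for genes with both directions and 3319 bp for genes with 1 DMR.

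Of the genes with 2 or more DMRs, 51.8% (50.3% to 53.4%) carried both directions. The share was 41.2% among the 2097 genes with 2 DMRs, 58.7% with 3 and 73.4% with 5. It rose no further at 6 (71.6%), 9 (75%) or 10 DMRs (72.2%) by more than a small amount. More DMRs give a gene more chances to hold both directions, so a rise with their number is not a finding by itself. In the other lists it was 46.3% in Ox1 in the HN field, 57.6% in WYG7 in the NN field and 56.4% in Ox1 in the NN field. Both directions were less frequent in the dense windows. There 12.3% of the genes with several DMRs had both directions, against 58.2% outside. Several DMRs were found in 61.4% of the genes in dense windows, against 34.6% outside, and dense windows were chosen by the number of DMRs.

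**Figure D4:**
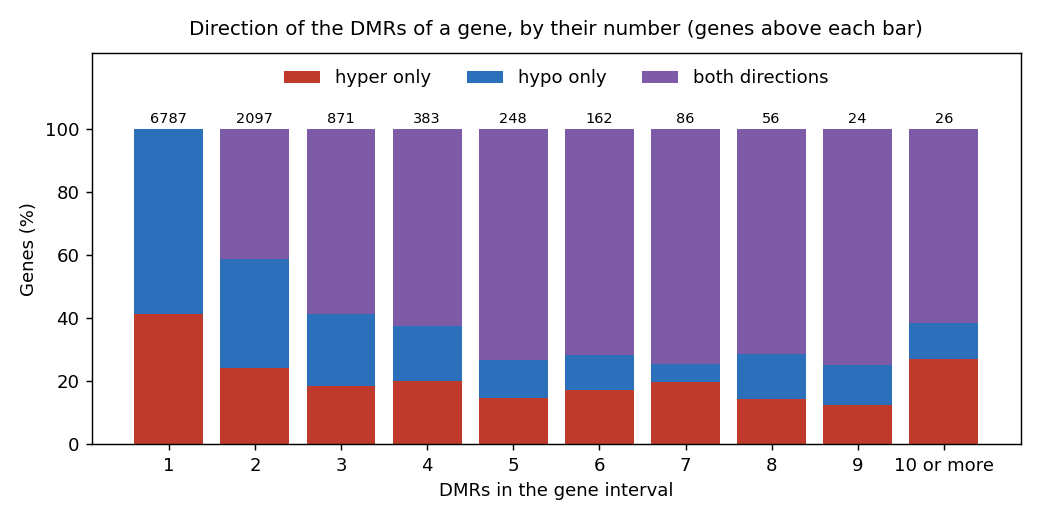
Listed genes of WYG7 in the HN field by the number of DMRs in the interval (x axis), as the percentage that were hyper only (red), hypo only (blue) or of both directions (purple), with the number of genes above each bar. Both directions were found in 41.2% of the genes with 2 DMRs and in 73.4% of those with 5, and more DMRs give a gene more chances to hold both.

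The gene with the most DMRs was LOC_Os03g17634 at chr3:9797352-9823129, a long interval with 9 hyper-DMRs and 5 hypo-DMRs. All 14 lay between 6548 and 15708 bp from the first base of the interval, and the direction changed 7 times along it. A hyper-DMR of 308 bp at chr3:9807954-9808261 shared its last base with a hypo-DMR of 189 bp. The gene had 9 DMRs in Ox1 in the HN field, 12 in WYG7 in the NN field and 4 in Ox1 in the NN field, and thus had several DMRs in every comparison. LOC_Os07g31870 at chr7:18932047-18953572 behaved alike, with 8 hyper-DMRs and 4 hypo-DMRs, 8 changes of direction, and 5, 7 and 12 DMRs in the other lists in the same order. LOC_Os06g23504 at chr6:13703784-13722973 had 5 hyper-DMRs and 6 hypo-DMRs, and 11, 8 and 7 DMRs in the other lists.

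The named genes with many DMRs of 1 direction are given with their numbers in the other lists. They were chosen by their number in this list, so a lower number elsewhere is not a finding. LOC_Os11g44014 at chr11:26587326-26600262 had 13 hyper-DMRs that covered 47.4% of its interval, and 1, 0 and 0 DMRs in Ox1 in the HN field, WYG7 in the NN field and Ox1 in the NN field. LOC_Os09g01480 at chr9:347806-358584 had 13 hypo-DMRs covering 39.6%, and 1, 0 and 0 in the other lists. LOC_Os02g58770 at chr2:35900978-35912551, outside the dense windows, had 12 hyper-DMRs covering 42.6%, and 2, 0 and 3 in the other lists. LOC_Os11g33070 and LOC_Os11g31050 had 10 hypo-DMRs each, covering 49.6% and 57.8% of their intervals. The first had 3, 2 and 4 DMRs in the other lists and the second had 0, 2 and 0.

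LOC_Os09g22120 at chr9:13395571-13401464 had 12 hyper-DMRs that covered 71.1% of an interval of 5894 bp, and it was in no other table. Also in no other table were LOC_Os04g12610 at chr4:6981485-6988564, with 11 hyper-DMRs, LOC_Os08g03080 at chr8:1376078-1386197, with 10 hyper-DMRs covering 71.1%, and LOC_Os09g17329 at chr9:10604980-10623218, with 10 hyper-DMRs covering 27.7%. Only 8 genes had more than 10 DMRs, and 18 genes were tied at 10, of which those with the most covered bp were named first. Over all 26 genes with at least 10 DMRs, 16 had both directions and 10 had 1.

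**Figure D5:**
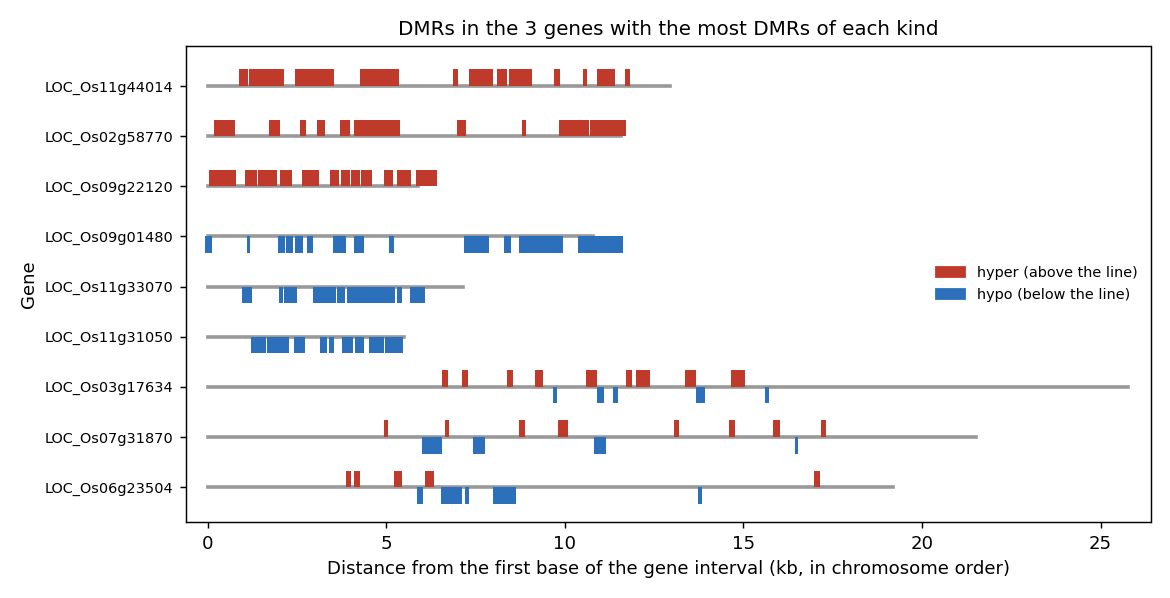
DMRs of the 3 genes with the most DMRs among those hyper only, hypo only and of both directions in WYG7 in the HN field, drawn to scale as distance in kb from the first base of each gene interval (grey line), with hyper-DMRs above and hypo-DMRs below the line. The 6 genes with 1 direction have DMRs along most of the interval and 10 to 13 DMRs each, and some of these extend past its end, while the 3 genes of both directions have 11 to 14 DMRs over part of longer intervals.

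In some genes DMRs covered most of the interval. The covered share was at least 50% in 425 genes, of which 230 were hyper only, 151 were hypo only and 44 had both directions, and 83, 107 and 60 genes reached it in Ox1 in the HN field, WYG7 in the NN field and Ox1 in the NN field. A single DMR covered the entire interval in 7 genes, 6 with a hyper-DMR, and no gene of the other tables was covered in full. The 5 of these with the longest intervals were LOC_Os09g22370, LOC_Os09g17470, LOC_Os11g46130 and LOC_Os11g44140 with a hyper-DMR, and LOC_Os08g27910 with a hypo-DMR. The longest hyper-DMR, 5670 bp at chr9:13082909-13088578, lay in LOC_Os09g21610, in which 2 hyper-DMRs covered 88.3% of the interval. The longest hypo-DMR, 4892 bp at chr11:18758083-18762974, lay in LOC_Os11g31920, in which 5 hypo-DMRs covered 73.8%, and it also overlapped LOC_Os11g31910.

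DMRs covered the ends of the gene intervals about as much as the inside. The table gives no strand, so a promoter could not be told from the other end. In the 5170 genes with an interval of at least 4 kb, DMRs covered 10.9% of the outer 1 kb at both ends and 10.99% of the inside. For hyper-DMRs the values were 5.08% at the ends and 5.12% inside, and for hypo-DMRs they were 5.79% and 5.87%.

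The 2049 genes with both directions differed in the arrangement of their DMRs. In 1335 of them (65.2%) the direction changed once along the gene, which is the only possibility for the 863 genes with 1 DMR of each kind. Of the 1186 genes of both directions with 3 or more DMRs, 472 had 1 change, so that hyper-DMRs lay on 1 side and hypo-DMRs on the other. In the others, which were the majority, the direction changed more than once. Full alternation was found in 75 of 675 genes of both directions with at least 4 DMRs. DMRs of opposite direction were near each other. The smallest gap between them in a gene had a median of 327 bp, and it was at most 100 bp in 544 genes (26.5%) and at most 1 kb in 1592 (77.7%). In genes with 2 DMRs, the median gap was 534 bp when the directions were opposite and 524 bp when they were the same. In the other lists the gap of same-direction pairs was wider, at 707 bp, 726 bp and 709 bp, and that of opposite pairs was 541 bp, 534 bp and 608 bp.

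The direction changed at most 8 times in a gene, in 3 genes. Besides LOC_Os07g31870 these were LOC_Os05g28900 and LOC_Os07g13634, both named after their values were seen. LOC_Os05g28900 at chr5:16936624-16943211 had 6 hyper-DMRs and 4 hypo-DMRs over 47.0% of its interval of 6588 bp, and 1 of its hyper-DMRs overlapped the next hypo-DMR by 4 bp. LOC_Os07g13634 at chr7:7814442-7832311 had 5 DMRs of each direction.

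Neighbouring genes were often listed together. Genes were ordered along the chromosomes among the 19182 listed in any table, so a gene without a DMR in the study does not break a run. Runs of at least 10 consecutive listed genes numbered 76 and held 1288 genes, against 38 runs in Ox1 in the HN field, 52 in WYG7 in the NN field and 7 in Ox1 in the NN field. The longest run had 72 genes, against 14, 17 and 11. Runs of at least 10 genes that were all hyper only numbered 20 with 369 genes, and runs of hypo only genes numbered 12 with 219 genes. The other tables had 2, 0 and 0 such hyper runs and 0, 0 and 0 such hypo runs. At a lower limit the order differed. Listed runs of at least 5 genes numbered 520, against 513, 606 and 194, and hyper only runs of at least 5 genes numbered 51, against 125, 92 and 1. Hypo only runs of at least 5 genes numbered 50, against 0, 1 and 18.

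The longest hyper only neighbourhood had 58 genes from LOC_Os11g46080 to LOC_Os11g47330 at chr11:27893235-28478132. Its genes carried 139 DMRs and 41 of them had several. Of the 58 genes, the table of Ox1 in the HN field shared 21, that of WYG7 in the NN field 5 and that of Ox1 in the NN field 15, and 33 were in no other table. The next were 35 genes at chr9:10493872-10707852, of which 28 were in no other table, and 31 genes at chr11:26541837-26811428. The longest hypo only neighbourhood had 44 genes with 111 DMRs from LOC_Os05g09704 to LOC_Os05g10630 at chr5:5472689-5798299, and 23 of them were in no other table. It was followed by 23 genes at chr9:436172-614420 and 22 genes at chr9:305433-409723. A hyper only run of 19 genes at chr4:31910250-32169604 had no dense window in it. Over all 10740 listed genes, 22.1% were in no other table. These neighbourhoods were chosen as the longest runs of this list, so a higher share in them is not a finding.

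Adjacent listed genes also had the same direction more often than not. Among 3868 adjacent pairs in which each gene had 1 direction and no DMR was shared, 60.8% (59.2% to 62.3%) had the same direction, 947 hyper and 1404 hypo pairs, and 1517 pairs were opposite. Without the dense windows the share was 55.3% (53.5% to 57.0%). The share was 70.3% in Ox1 in the HN field and 60.6% in WYG7 in the NN field and in Ox1 in the NN field, whose compositions were less even.

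Of the 10740 genes, 2371 (22.1%) were in no other table and 2941 (27.4%) were in all 3 others. The genes in all tables had a mean of 2.62 DMRs here and a median interval of 4703 bp, and 67.7% of those with several DMRs had both directions. The genes in no other table had a mean of 1.38 DMRs and a median interval of 3214 bp, and 13.03% of those with several DMRs had both directions. Dense windows held 18.7% of the genes in no other table and 3.23% of those in all tables. Whether a window was dense was decided from this list alone, which favours genes listed only here. The contrast between 18.7% and 3.23% is therefore not a finding. Among genes with several DMRs, 12.3% had both directions in dense windows and 58.2% outside. The part of dense windows and of DMR number in the contrast between 67.7% and 13.03% was not tested. A longer interval can hold more DMRs in any list, and the part of interval length in these differences was not tested.

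Many DMRs overlapped a DMR of another list, about as often in the opposite as in the same direction. An overlap of at least 1 bp with a DMR of another list was found for 16771 DMRs (58.1%). Directions matched in 47.6% of the overlapping pairs with Ox1 in the HN field, 49.4% with WYG7 in the NN field and 53.9% with Ox1 in the NN field. The share of DMRs that overlapped a DMR of another list was 25.7% in the dense windows and 62.7% outside. This share was 76.1% in genes of both directions. It was 60.7% in listed genes and 53.7% outside them. By length it was 53.3% for DMRs under 200 bp, 65.2% for those from 500 bp to just under 1 kb and 55.1% for those of at least 1 kb. Of these long DMRs, 45.1% of the 410 in dense windows and 66.7% of the 351 outside were shared. Dense windows were chosen by the count of this list, so the lower shares in them are not a finding. A longer DMR can meet a DMR of another list more easily, and its part in the shares by length was not tested.

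The study gave primers for loci it followed by qRT-PCR. Excluding the reference gene, 15 loci were looked up and 3 of them were listed here. Only 9 of the 15 were in any of the 4 tables, and 56% of all genes in any table were listed here. The paper states that it chose some of the genes it followed from its own DMGs. The count of listed loci is therefore a description and cannot be tested against the share of all genes. OsMADS59 (LOC_Os06g23950), a MADS-box transcription factor, had 1 hyper-DMR at chr6:13995145-13995469 that overlapped the first 56 bp of its interval. OsWAKY46 and OsWAKY59, both names of LOC_Os11g02480 in that primer list, had 1 hypo-DMR of 225 bp. OsATL16 (LOC_Os01g41400) had a hypo-DMR of 138 bp, a hyper-DMR of 181 bp that followed after 35 bp, and a hypo-DMR of 130 bp. All 3 were also listed for Ox1 in the HN field and WYG7 in the NN field, and Ox1 in the NN field had none of them.

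The other 12 loci were not listed in this comparison. OsNAR2.1, the partner protein of the high-affinity nitrate transporters, was in no table. The same held for the DNA methyltransferase genes OsMET1, OsCMT2, OsCMT3, OsDRM2 and OsDRM3. OsDRM1b and OsAGO1a, whose protein binds small RNAs, were listed only for WYG7 in the NN field, as was the ammonium transporter gene OsAMT4. OsMADS37 and OsMADS95 were listed for Ox1 in the HN field, and OsWAKY54 for Ox1 in the HN field and WYG7 in the NN field. A gene that is not listed had no DMR under the authors' limits, which does not show that its methylation was equal in both libraries.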

How the data were processed

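Leaf DNA of 8 libraries, 1 per condition, was sequenced after bisulfite conversion. Reads were mapped by the authors to IRGSP-1.0 (Bismark 0.9.0, from the submitters' processing notes), and each LN library was compared with its HN counterpart by SMART, with a coverage of each cytosine above 4, at least 5 cytosines, at least 100 bp, a difference of at least 0.3 and a limit on the p-value. The deposited lists give DMR positions and directions and gene intervals with MSU locus identifiers, in bp, and carry no level or read coverage, so the depth per DMR is unknown. The lists do not name the library that hyper refers to. Following the methods of the study, which set hyper against the control, it was read as LN above HN. Positions were read as counted from 1 with both ends included.

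Python 3.11.15 with numpy 2.4.6 and pandas 2.3.3 gave the counts, gaps, runs, overlaps and Wilson 95% intervals, and figures were drawn with matplotlib 3.10.9. The functions were tested on simulated data. No test across samples was possible with 1 library a side.

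The members, lists and settings were chosen with earlier results of these data known. Genes were named by rule: the loci of the study's primer table without OsActin, the 10 genes with the most DMRs, the 3 with the most DMRs of each kind, the gene with the longest DMR of each direction, the 5 with the largest covered share (ties by covered bp) and the ends of the longest neighbourhoods. Alternatives were longer, merged or length-weighted DMRs, other overlaps, distances and windows, and leaving out dense windows. The reference table used here holds no MSU identifiers, so gene families, strand, exons, introns and sequences were not analysed here. The planned results on DMR position in genes and on gene lists by annotation were therefore not made, and the primer loci took the place of the lists.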

Additional observations from a re-analysis of the deposited data

Results flagged for a closer look

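The direction of the DMRs differed between comparisons of LN with HN seeds. The hyper share of WYG7 in the HN field minus that of Ox1 in the HN field was -29.5 percentage points, and minus that of WYG7 in the NN field it was -18.6 percentage points. In WYG7 in the HN field hypo-DMRs were the majority, and in both others hyper-DMRs were. Ox1 in the NN field, with 33.7% hyper, also had a hypo majority. With 1 library per condition, neither difference was tested.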

How the results depend on the processing

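Of 30 alternative settings, 12 moved a value by more than its counting interval or, for counts, by more than 1.5 times, and the other 18 did not. Hypo-DMRs were the majority under every alternative tried for the hyper share. Keeping only DMRs of at least 200 bp left 17204 DMRs, a median gap of 5299 bp, 70.1% same-direction neighbours within 1 kb and 1089 genes of both directions. Without the dense windows the hyper share was 43.6%, the median gap 4035 bp, the same-direction share 54.0% and the share of genes with several DMRs that had both directions 58.2%. Weighting by length gave a hyper share of 47.9%. Distances between centres had a median of 3405.25 bp. Merging DMRs of 1 direction at gaps of up to 100 bp gave 56.4% of genes with several DMRs in both directions, and 50.5% of DMRs were shared when at least 50% of the shorter DMR had to overlap. Fewer DMRs or other distances follow from how these alternatives are built. With windows of 250 kb, 4736 DMRs lay in dense windows, and with windows of 1 Mb, 3113. No paired analysis was possible because each condition has 1 library. Leaving out a replicate was not possible for the same reason. Read coverage per DMR is unknown, so a difference in depth between libraries or places was not tested.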

Other observations

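DMRs in the dense windows had a median length of 313.5 bp, against 222 bp outside, and 61.8% of them were hyper, against 43.6% outside. In 492 places of the list neighbouring DMRs overlapped, by at most 4 bp, so the number of DMRs counts some continuous stretches more than once. The other lists had 237, 236 and 266 such overlaps, in the order Ox1 in the HN field, WYG7 in the NN field and Ox1 in the NN field.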
